A study of Mus musculus with 36 samples.

Results

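Cardiac potassium channels are followed here through 10 genes whose products carry or shape the repolarizing currents of heart muscle: *Kcnd2*, *Kcnip2*, *Kcna4*, *Kcna5*, *Kcnh2*, *Kcnq1*, *Kcne1*, *Kcnj2*, *Kcnj3* and *Kcnj5*. They were chosen by name, with earlier results of these data known. All 21 of their probe sets, each of them several short probes for the same transcript, were taken from an array that covers 20701 Entrez genes. RNA was measured in whole hearts of OF1 mice, an outbred strain, without any genetic change or treatment. Embryonic hearts were taken daily between E10.5 and E19.5, and adult hearts from young adults of 10 weeks and old adults, which were 14 months old in the deposited description and 10 months old in the methods. Each of the 12 stages has 3 arrays, which makes 36. Every array of the first pair of stages is labelled mixed males and females, and from E12.5 on each stage has 1 array labelled female, 1 male and 1 mixed. A female or male array holds the heart of 1 animal and a mixed array hearts of both sexes, so at each later stage the spread between the 3 arrays holds the sex difference as well.

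Potassium channels open after the upstroke of the cardiac action potential and return the membrane to rest, and the mixture of channels in a cell sets how long each beat lasts. Voltage-gated pores give the transient outward and delayed rectifier currents, inward rectifiers hold the resting potential, and auxiliary subunits change how many pores reach the membrane and how fast they open and close. The adult mouse heart beats very fast and repolarizes mainly through transient outward and rapidly activating currents, whereas ERG and KvLQT channels are best known from the longer action potentials of larger mammals.

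All values are log2 intensities from robust multi-array average, which corrects for background, equalizes the distributions of the arrays and combines the probes of each set into a single value. They depend on the affinity of each probe set, so levels are compared between stages and not between genes. Each gene is read from its probe set with the highest mean over the 36 arrays. Stage means were compared in limma with Benjamini-Hochberg adjustment over all probe sets, and a difference is termed called when the adjusted p was under 1e-05, the change exceeded 4-fold (2 on the log2 scale) and a stage mean exceeded 5. A wider limit, an adjusted p under 0.05, is given beside it. With 3 arrays per stage, the number of arrays limits the precision of every mean.

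The cardiomyocyte markers *Tnnt2*, *Ryr2*, *Pln* and *Actn2* were above 5 at every stage, with a mean over the 4 genes between 10.22 and 11.29 on every array. The extraction protocol of the labels names liver, but the liver genes *Alb*, *Afp*, *Apoa1* and *Ttr* had stage means between 3.27 and 4.13. In a bulk sample, fewer cells of a type and less RNA per cell cannot be told apart. The mean level of the 18 hybridization control probe sets, which report how each array was processed, rose from between 9.68 and 10.35 at E10.5 to between 12.03 and 12.43 in young adults, and a fit with it as a covariate is given where it turned a direction or ended a call. No array of another stage reached the young adult range. Such a fit against young adult therefore rests on the spread within stages and cannot separate the control level from the stage. Markers of other cells also differed between the ages: the summed intensity of 4 leukocyte markers was between 48 and 65 at E10.5, 244 and 286 at E19.5 and 607 and 674 in young adults, while that of 4 erythroid markers was between 12247 and 16414, 68 and 87 and 75 and 149 at the same stages. The sum of 4 fibroblast markers, between 880 and 1018, 2817 and 3055 and 5807 and 7766, followed *Dcn* (7.13, 10.59 and 12.57), whereas *Col1a1* (6.86, 10.02 and 6.70), *Tcf21* (7.28, 6.73 and 5.91) and *Pdgfra* (8.08 at E19.5 and 8.01 in young adults) were lower or about level in young adults compared with E19.5. The sum of 3 adipocyte markers was between 17 and 18 at E10.5 and 95 and 668 in young adults. The sum of 4 smooth muscle markers was between 6710 and 7557 at E10.5 and lower, between 3001 and 4052, in young adults. Their mean log2 level was between 7.89 and 8.23 at E10.5 and higher, between 8.38 and 8.99, in young adults. *Acta2* (12.67 and 11.30) and *Cnn1* (7.81 and 5.60) were lower in young adults, and *Myh11* (3.20 and 8.54) and *Tagln* (8.68 and 9.03) higher. The part of these cells in the channel levels was not tested.

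The genes *Kcna4* and *Kcna5*, 2 members of the Shaker family, followed opposite courses between embryo and adult, as described further on. Their upstream sequences are shown because these close relatives moved in opposite directions. The 250 bases before the annotated start of each gene, from RefSeq on GRCm38.p6, are given 5′ to 3′ on the strand of the gene. For *Kcna4* they lie on the plus strand at chr2:107290339-107290588, and for *Kcna5* on the minus strand at chr6:126535556-126535805. Capitals mark matches to the 4 motifs searched on both strands, namely the TATA box TATAAA, the GC box GGGCGG, the GATA letters AGATAA and the M-CAT letters CATTCC, none of which overlap in these windows.
Kcna4: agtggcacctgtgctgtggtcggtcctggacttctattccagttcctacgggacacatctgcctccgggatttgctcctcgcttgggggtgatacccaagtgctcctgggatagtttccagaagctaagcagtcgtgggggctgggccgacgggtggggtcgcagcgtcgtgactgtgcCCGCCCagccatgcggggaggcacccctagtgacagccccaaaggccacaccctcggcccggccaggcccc
Kcna5: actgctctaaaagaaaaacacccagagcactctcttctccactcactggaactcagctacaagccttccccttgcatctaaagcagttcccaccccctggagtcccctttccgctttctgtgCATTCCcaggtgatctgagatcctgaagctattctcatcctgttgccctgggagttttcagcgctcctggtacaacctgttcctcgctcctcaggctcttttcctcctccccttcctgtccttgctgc
The *Kcna4* window held 1 GC box, read on the opposite strand as CCGCCC, and the *Kcna5* window 1 M-CAT match. Among 32851 windows of the same length, 32.7% hold a GC box, 12.6% an M-CAT match, 12.4% a TATA box and 10.0% the GATA letters. The *Kcna4* window is 65.2% G and C with 14 CpG pairs, and the *Kcna5* window 53.2% with 3, against medians of 52.4% and 6 over all windows. Windows were found for 8 of the 10 genes. A match describes the letters and is not a measured site.

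By the strict rule, 2 of the 10 genes were called between E10.5 and young adult, where 7.78% of all genes were called, 1 between E19.5 and young adult (1.81% of all genes), 1 between E10.5 and E19.5 (2.52%) and 0 between old and young adult (0.00966%). *Kcnip2* and *Kcna5* were lower at E10.5 than in young adults, *Kcne1* was higher at E19.5 than in young adults, and *Kcnip2* was lower at E10.5 than at E19.5. In at least 1 stage against young adult, 4 of the 10 were called, *Kcna4* being added by the stages from E12.5 to E18.5, against 10.0% of all genes. The study had already described changes of *Kcna4*, *Kcna5* and *Kcne1* in these data before the 10 genes were chosen. These counts beside the shares of all genes are therefore a description and no test of enrichment. With an adjusted p under 0.05, 4 genes were higher and 4 lower at E10.5 than in young adults (28.5% and 38.6% of all genes). Among the E19.5 differences from young adult, 4 were positive and 3 negative (17.0% and 14.7% of all genes). Between E10.5 and E19.5, 1 was higher and 6 were lower at E10.5 (23.6% and 26.2% of all genes). Centring the arrays on expressed probe sets gave 3 higher and 6 lower at E10.5 against young adult (18.0% and 63.6% of all genes). At E19.5 it gave 3 higher and 4 lower (12.0% and 23.3% of all genes). The median difference of the 10 genes between E10.5 and young adult was -0.53, against -0.21 over all genes, and between E19.5 and young adult 0.21, against -0.05.

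**Figure D1:**
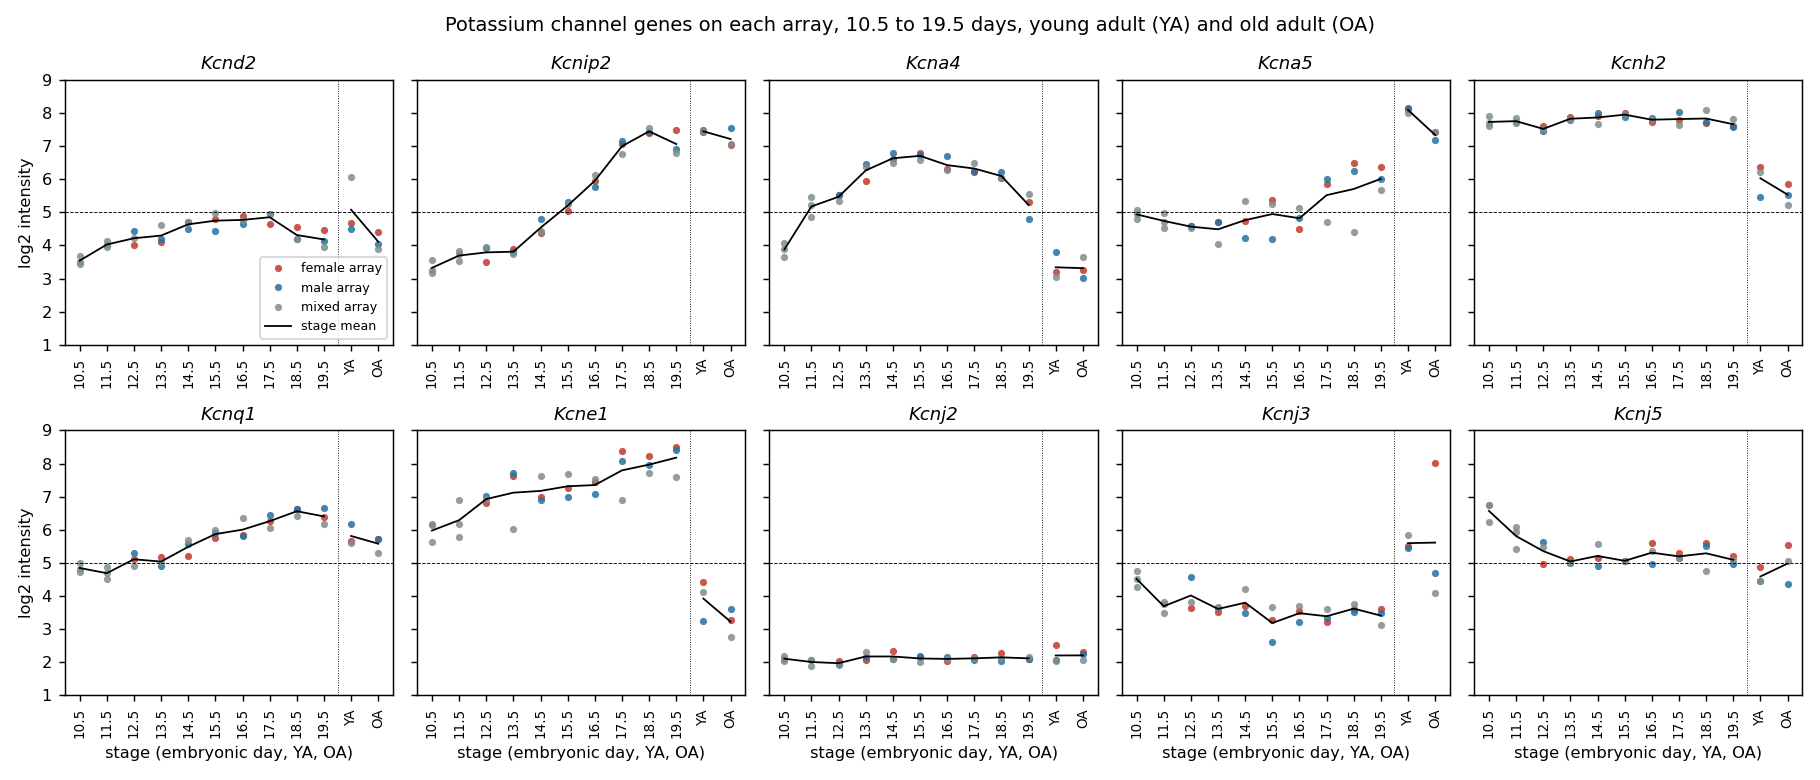
Log2 intensity of the 10 genes on each of the 36 arrays, from the probe set with the highest mean, against stage; points are single arrays coloured by sex label, lines join stage means, the dotted line stands for birth and the dashed line marks 5. *Kcnip2* climbs from E13.5 to E18.5, *Kcna4* arches with its highest mean of 6.71 at E15.5, and *Kcnh2* and *Kcne1* are high in embryos and low in adults.

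The fast transient outward current is carried by the pore Kv4.2, the product of *Kcnd2*, with KChIP2, the product of *Kcnip2*, as its calcium-binding auxiliary subunit. *Kcnip2* (chromosome 19, 45792346 to 45816422 on GRCm38.p6) climbed in small daily steps. Its level was 3.55, 3.25 and 3.17 on the E10.5 arrays and 3.89, 3.80 and 3.74 on the female, male and mixed arrays of E13.5. It then read 4.36, 4.81 and 4.43 at E14.5 and 5.05, 5.31 and 5.24 at E15.5. At E16.5 the female, male and mixed arrays gave 5.95, 5.76 and 6.14, at E17.5 7.07, 7.16 and 6.75, and at E18.5 7.38, 7.41 and 7.54. On each day from E14.5 to E18.5, all 3 arrays were therefore above all 3 of the day before.

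Young adult hearts gave *Kcnip2* levels of 7.47, 7.41 and 7.45 on the female, male and mixed arrays, so the E18.5 mean of 7.44 differed from the young adult mean by 0.00 (SE 0.170, adjusted p 0.989). The 95% interval of that difference ran from -0.35 to 0.34. E19.5, at 7.47, 6.91 and 6.80, lay 0.39 below young adult (adjusted p 0.0878), or 0.63 below with the hybridization control level as a covariate (adjusted p 0.0145). E10.5 lay 4.12 below young adult, 17.4-fold on this scale (SE 0.170, adjusted p 5.5e-19), and 3.74 below E19.5 (adjusted p 3.7e-17). All E10.5 arrays were below 5, near background, where a difference is compressed, so these sizes may understate the change. The largest daily step was from E16.5 to E17.5, 1.04 (SE 0.170, adjusted p 0.00624), and no other daily step had an adjusted p under 0.05. The 2 other *Kcnip2* probe sets stayed below 4.1 on every array and were lower at E10.5 than in young adults by 0.74 (adjusted p 0.00175) and 0.56 (adjusted p 0.00211). With the mean of the 3 probe sets the difference between E10.5 and young adult was -1.81, under the 4-fold limit.

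*Kcnd2* (chromosome 6, 21215346 to 21729805) had 4 probe sets, which did not move alike. In the one with the highest mean, E10.5 read 3.68, 3.43 and 3.51, and young adults 4.67 (female), 4.49 (male) and 6.07 (mixed). The mixed array stood far above the other two, and the groups did not overlap. E10.5 was 1.54 below young adult (SE 0.243, adjusted p 3.0e-06), or 1.04 below without the mixed young adult array (adjusted p 2.7e-05). E19.5 was 0.90 below young adult (adjusted p 0.00502), which became 0.40 without that array (-0.40, adjusted p 0.118). The highest embryonic mean was 4.85 ± 0.17 (SD, n = 3) at E17.5, and E19.5 had 4.18 ± 0.27.

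A second *Kcnd2* probe set was even across young adults, at 6.05, 5.73 and 5.93 on the female, male and mixed arrays. It read 3.14, 3.35 and 3.53 at E10.5, 3.97, 3.88 and 3.81 at E18.5 and 4.82, 4.29 and 4.46 at E19.5, so the embryonic arrays up to E18.5 lay at or below 4.12. In this probe set E10.5 was 2.56 below young adult (SE 0.190, adjusted p 7.6e-13), past the strict rule, and E19.5 1.38 below (adjusted p 9.4e-07). Old adults, at 5.29, 5.25 and 4.32, were 0.95 below young adults (adjusted p 0.00235). The other two stayed below 4.3 on every array. At E18.5, when *Kcnip2* differed by 0.00 from young adult, the evenly read *Kcnd2* probe set was 2.02 below it (adjusted p 4.4e-10) and the brightest 0.76 below (adjusted p 0.0141).

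The slow transient outward current runs through Kv1.4, encoded by *Kcna4* (chromosome 2, 107290589 to 107326804), and Kv1.5, encoded by *Kcna5* (chromosome 6, 126532551 to 126535555), carries a rapidly activating delayed rectifier current. *Kcna4* read 3.90, 3.65 and 4.07 at E10.5 and 4.86, 5.22 and 5.45 at E11.5, a rise of 1.31 in 1 day (SE 0.198, adjusted p 2.7e-04). A further rise of 0.79 came between E12.5 and E13.5 (adjusted p 0.0398). From E13.5 to E18.5 all 18 arrays lay between 5.94 and 6.79. A fall of 0.87 followed from E18.5 to E19.5 (adjusted p 0.0204), to 5.30, 4.81 and 5.55.

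Young adults gave 3.19, 3.79 and 3.04 for *Kcna4* on the female, male and mixed arrays, below every array from E11.5 to E19.5. E19.5 was 1.89 above young adult (SE 0.198, adjusted p 7.1e-09), just under the 4-fold limit. Leaving out the male array of E19.5 gave 2.09 and leaving out the male array of young adult 2.11, both called. E10.5 was 0.53 above young adult (adjusted p 0.0209), and the arrays overlapped. That small difference was 0.01 (adjusted p 0.981) when arrays were centred on expressed probe sets, which moved the median over all genes by -0.53. The second *Kcna4* probe set lay at or below 3.46 on every array.

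*Kcna5* has 1 probe set. Its arrays lay between 4.04 and 5.38 at every stage from E10.5 to E16.5, and at 8.14, 8.13 and 7.99 in young adults. At E17.5 and E18.5 the female and male arrays were at 5.86 and 5.99 and at 6.48 and 6.24, whereas the mixed arrays were at 4.70 and 4.39. At E19.5 the arrays were closer together, from 5.67 (mixed) to 6.36 (female). Old adults read 7.41, 7.17 and 7.42, below all 3 young adult arrays.

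The difference of *Kcna5* between E10.5 and young adult, -3.15 (SE 0.369, adjusted p 1.4e-08), corresponds to 8.89-fold. With the prefix of the sample titles as a block, which changes from the female array of E16.5 on, it was -3.63 and no longer called (adjusted p 1.1e-04). No E10.5 array and every young adult array has the prefix, and only E16.5 holds both kinds. That fit therefore rests on the E16.5 arrays, where the prefix cannot be separated from the female label. E19.5 was still 2.08 below young adult (adjusted p 5.0e-05). Without their mixed arrays, E17.5 was 2.17 below young adult in place of 2.57 (adjusted p 3.8e-05), and E18.5 1.73 in place of 2.38 (adjusted p 8.5e-05), so that neither was called. Old adults were 0.76 below young adults (SE 0.369, adjusted p 0.216, 95% interval -1.51 to 0.00), a difference that did not pass the test although the arrays did not overlap. That SE is shared by all stages and holds the spread at E17.5 and E18.5 (SDs 0.71 and 1.15), while young and old adults had SDs of 0.08 and 0.14. Taking both genes on the same array, *Kcna5* minus *Kcna4* was 1.06 ± 0.17 at E10.5 and reached its lowest mean, -1.87 ± 0.70, at E14.5 (SD, n = 3). The E19.5 mean was 0.79 ± 0.58, the young adult mean 4.75 ± 0.35 and the old adult mean 4.02 ± 0.22. Every adult array, at 3.76 or more, was above every embryonic array, at 1.18 or less.

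Kv11.1 or ERG1, encoded by *Kcnh2* (chromosome 5, 24319589 to 24351684), carries the rapid delayed rectifier current. Its level was almost flat through embryonic life: all 30 embryonic arrays lay between 7.45 and 8.08, and no daily step had an adjusted p under 0.05. Young adults read 6.38 (female), 5.47 (male) and 6.23 (mixed), and old adults 5.85, 5.52 and 5.23, all below the lowest embryonic array. Against young adult, E10.5 was 1.70 higher (SE 0.170, adjusted p 5.3e-10) and E19.5 1.63 higher (adjusted p 5.5e-09), 3.25-fold and 3.10-fold, which kept both under the 4-fold limit. E10.5 and E19.5 differed by 0.07 (adjusted p 0.752).

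The slow delayed rectifier current needs the pore KvLQT1, encoded by *Kcnq1* (chromosome 7, 143106877 to 143427050), and its single-span partner minK, encoded by *Kcne1* (chromosome 16, 92346001 to 92359468). *Kcnq1* read 4.73, 5.00 and 4.81 at E10.5, and at E18.5 6.64, 6.62 and 6.42 on the female, male and mixed arrays. Young adults gave 5.67, 6.17 and 5.60. E10.5 was 0.97 below young adult (SE 0.177, adjusted p 2.6e-05), whereas E18.5 was 0.74 above (adjusted p 0.00121), and in both cases the arrays did not overlap. At E19.5 the difference of 0.59 (adjusted p 0.0115) came with overlapping arrays and was 0.45 without the male E19.5 array (adjusted p 0.0864), 0.48 without the mixed young adult array (adjusted p 0.0706) and 0.51 without the female one (adjusted p 0.0525). The covariate fit gave 0.36 (adjusted p 0.209).

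*Kcne1* was read by 2 probe sets, both higher in embryos than in adults. In the brighter one, the E10.5 arrays were at 6.15, 6.16 and 5.62 and the E19.5 arrays at 8.51 (female), 8.42 (male) and 7.60 (mixed). Young adults were at 4.41, 3.25 and 4.11 and old adults at 3.29, 3.62 and 2.77, so no adult array reached 5 and no embryonic array was below it. In the second probe set the embryonic arrays lay between 5.37 and 7.49 and the adult arrays between 3.40 and 4.14, and E19.5 was 2.88 above young adult (SE 0.177, adjusted p 5.3e-14), against 4.25 in the first (SE 0.378, adjusted p 2.3e-10).

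Mixed arrays of *Kcne1* were low at E13.5, 6.02 against 7.63 and 7.71, and at E17.5, 6.91 against 8.39 and 8.08. Leaving each out gave differences from young adult of 3.75 and 4.31 in place of 3.20 and 3.87. E10.5 was 2.05 above young adult (SE 0.378, adjusted p 2.9e-05). With the hybridization control level as a covariate this became -0.57 (adjusted p 0.486), while E19.5 stayed above young adult by 3.09 (adjusted p 5.9e-09). The control levels of E10.5 and young adults did not overlap, so that fit cannot separate the control level from the stage. Among the differences with an adjusted p under 0.05 in the 4 main comparisons, no other turned its direction with that covariate.

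From E10.5 to E19.5 *Kcne1* rose by 2.20 in its brighter probe set (adjusted p 2.2e-05) and by 1.25 in the other (adjusted p 1.2e-06), whose highest mean was at E18.5, and *Kcnq1* rose by 1.55 (adjusted p 2.7e-08), and of the pair only *Kcne1* left its embryonic range in adults. *Kcne1* minus *Kcnq1* on the same array was between 0.81 and 2.82 on all 30 embryonic arrays. It was between -2.92 and -1.26 on the young adult arrays and between -2.52 and -2.10 on the old adult arrays. The mean moved from 1.78 ± 0.35 at E19.5 to -1.89 ± 0.90 in young adults (SD, n = 3), without overlap. Adult *Kcnq1* arrays, at 5.29 to 6.17, lay within the embryonic range of 4.50 to 6.67.

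**Figure D2:**
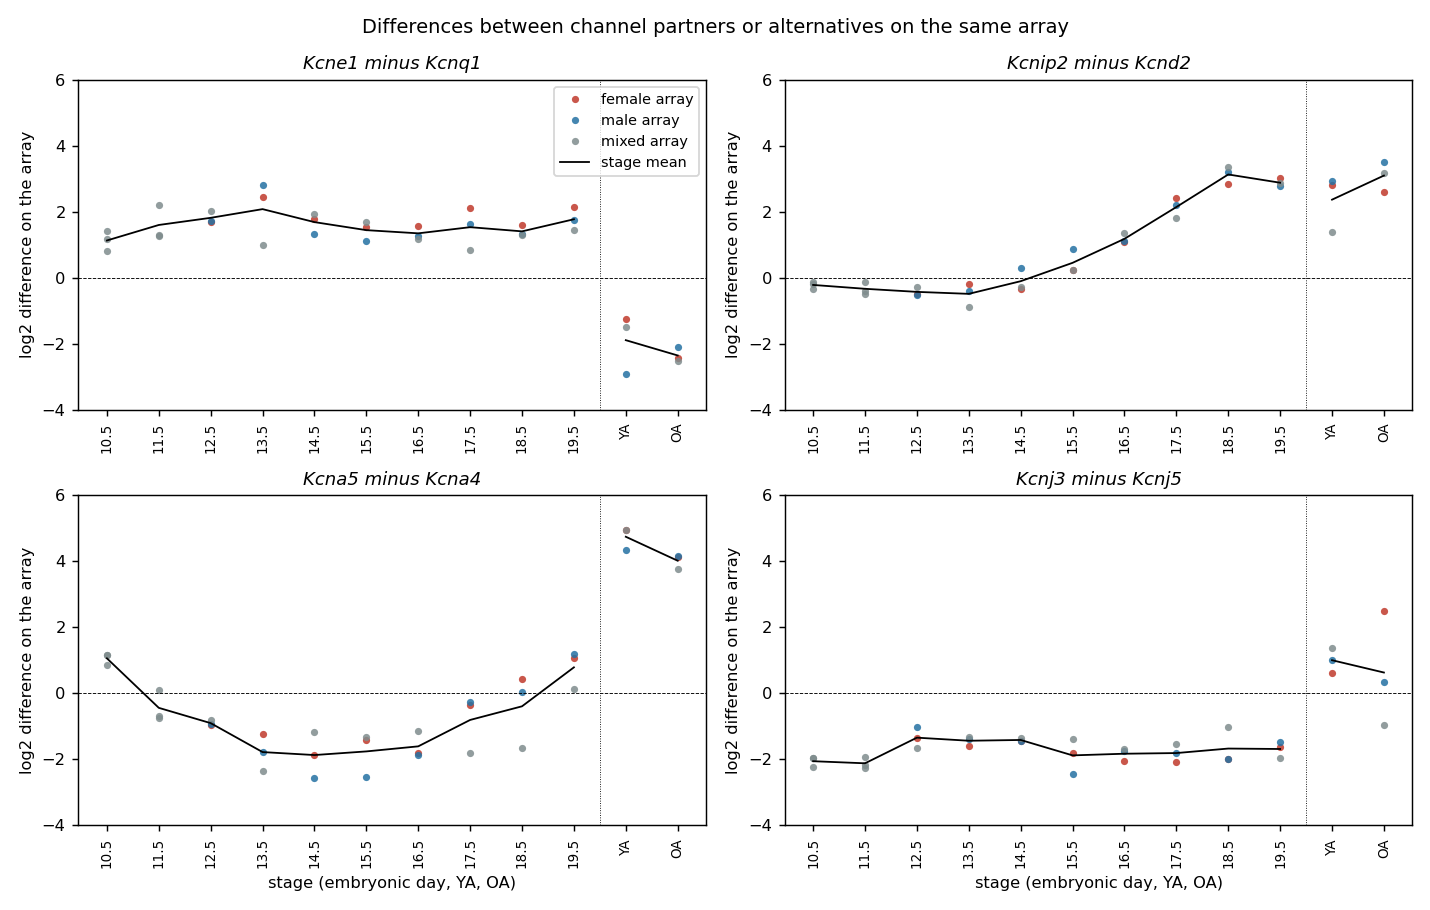
Difference of 2 genes on the same array (log2) against stage, for *Kcne1* and *Kcnq1*, *Kcnip2* and *Kcnd2*, *Kcna5* and *Kcna4*, and *Kcnj3* and *Kcnj5*; points are arrays by sex label and lines join stage means. The zero line depends on the affinities of the probe sets, so only changes along the axis can be read, such as the shift of *Kcne1* minus *Kcnq1* from 1.78 at E19.5 to -1.89 in young adults.

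*Kcnip2* minus *Kcnd2*, with *Kcnd2* read from its probe set with the highest mean, shifted upward between E13.5 and E18.5. It was -0.22 ± 0.11 at E10.5 and -0.49 ± 0.35 at E13.5, and 3.13 ± 0.27 at E18.5 and 2.88 ± 0.12 at E19.5. Young adults had 2.37 ± 0.86, with the mixed array at 1.38, and old adults 3.10 ± 0.45. The evenly read *Kcnd2* probe set had means of 3.89 at E18.5 and 5.90 in young adults, while *Kcnip2* had 7.44 and 7.45. With that probe set the difference was thus smaller in young adults than at E18.5.

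Inward rectifiers comprise Kir2.1, the product of *Kcnj2* that carries the background current of resting muscle, and the acetylcholine-gated pair GIRK1 and GIRK4, the products of *Kcnj3* and *Kcnj5*, which slow atrial and nodal cells under vagal input. The single *Kcnj2* probe set (gene on chromosome 11, 111066164 to 111076825) read between 1.90 and 2.51 on all 36 arrays, within the lowest 5.2% of probe sets by mean level. At that level a difference between stages can hardly be read, and whether its probes reach the transcript in these hearts was not tested. The young adult mean exceeded that of E10.5 by 0.10 (difference -0.10, SE 0.119, adjusted p 0.475).

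*Kcnj5* (chromosome 9, 32314706 to 32344380) was highest at E10.5, at 6.75, 6.74 and 6.22, and read 6.07, 5.43 and 5.93 at E11.5. From E12.5 to E19.5 its arrays lay between 4.77 and 5.62. Young adults gave 4.87, 4.45 and 4.45, so that E10.5 was 1.98 higher (SE 0.240, adjusted p 2.8e-08), 3.94-fold and just under the limit, and E19.5 0.51 higher (adjusted p 0.116). The fit with the hybridization control level gave 0.98 for E10.5 (adjusted p 0.096). Its second probe set, at or below 3.75 on every array, moved the other way, with E10.5 0.47 below young adult (adjusted p 0.0127).

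*Kcnj3* (chromosome 2, 55411798 to 55598145) read 4.52, 4.77 and 4.26 at E10.5 and between 2.62 and 4.59 on all later embryonic arrays. Young adults gave 5.50, 5.46 and 5.83. E19.5, at 3.60, 3.50 and 3.13, was 2.19 below young adult (SE 0.492, adjusted p 8.7e-04), and E10.5 was 1.08 below (adjusted p 0.0566). The groups did not overlap in either comparison. The shared SE holds the spread of the old adult arrays (SD 2.11), while E10.5, E19.5 and young adults had SDs of 0.26, 0.24 and 0.20. Of the 3 other probe sets, all below 4.5 on every array, 2 were also lower at E19.5 than in young adults, by 0.55 (adjusted p 0.0126) and 0.63 (adjusted p 0.0313).

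The 3 old adult arrays of *Kcnj3* differed widely, with 8.03 on the female, 4.71 on the male and 4.10 on the mixed array. Their mean of 5.61 ± 2.11 differed from that of young adults by 0.02 (SE 0.492, adjusted p 0.989). Without the old female array, the difference was -1.19 (adjusted p 0.00447). Atrial markers separated the same arrays. *Sln*, the atrial regulator of the calcium pump, was 11.43 on the old female array against 8.02 and 7.30 on the male and mixed ones, and between 9.41 and 9.83 in young adults. The atrial light chains *Myl7* and *Myl4* were 12.73 and 11.91 on the old female array, against 9.46 and 9.53 for *Myl7* and 8.91 and 9.07 for *Myl4* on the other old arrays. Of the 6 atrial markers, 4 were highest on the female array among the old ones, although *Nr2f2* read 8.14 on both the female and the mixed array. *Nppa* was highest on the old male array, 13.41 against 12.97 on the female one, and *Gja5* was near background on all arrays. Their summed intensity was 21738 on the old female array, 12556 and 5776 on the male and mixed arrays and between 7650 and 10294 in young adults. The summed intensity of 4 ventricular markers was lowest on the old female array, 14052 against 21333 and 15525. The part of atrial tissue in the *Kcnj3* levels was not tested.

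**Figure D3:**
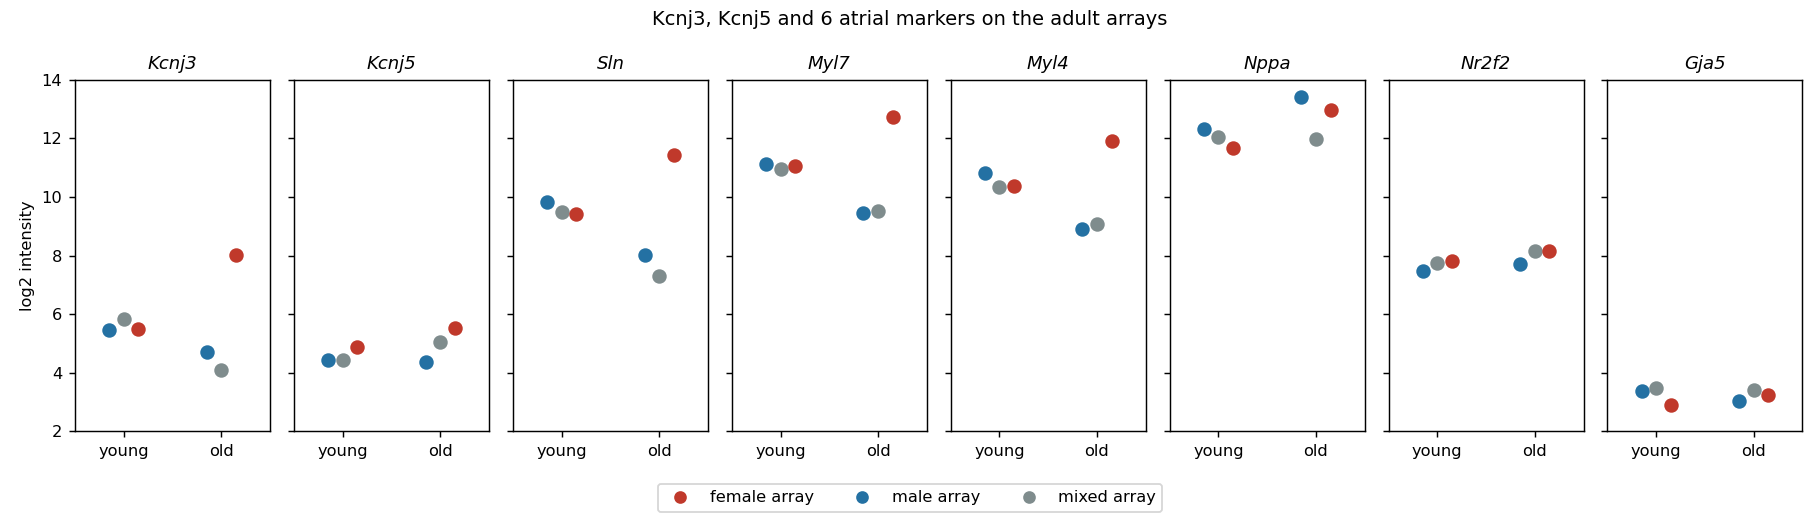
Log2 intensity of *Kcnj3*, *Kcnj5* and the 6 atrial markers on the 3 young and 3 old adult arrays, 1 point per array coloured by sex label. The old female array is the highest of the old arrays for *Kcnj3* (8.03), *Kcnj5* (5.54), *Sln* (11.43), *Myl7* (12.73) and *Myl4* (11.91).

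Some of the 6 atrial markers also differed between embryonic stages, though not all in the same direction. Whether these genes mark atrial tissue alone in embryonic hearts was not tested. *Kcnj5* was 1.47 higher at E10.5 than at E19.5 (adjusted p 1.0e-05). *Myl7* had a mean of 12.98 at E10.5 and 10.14 at E15.5, *Myl4* 12.10 and 10.52 and *Nppa* 11.85 and 10.47, whereas *Sln* had 3.50 and 4.99. *Nr2f2* was about level, at 7.46 and 7.49 and at 7.72 at E19.5, and *Gja5* was near background at 2.82 and 3.07. The summed intensity of the 6 markers was between 13811 and 18098 at E10.5, 3581 and 5534 at E15.5, and 3197 and 7411 at E19.5, and its part in the course of *Kcnj5* was not tested. On the same array, *Kcnj3* minus *Kcnj5* was between -2.44 and -1.02 on all embryonic arrays and 0.63, 1.01 and 1.38 on the female, male and mixed arrays of young adults. The old adult arrays spanned from -0.95 to 2.48.

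Between old and young adults, 0 of the 10 genes were higher and 1, *Kcnd2*, was lower with an adjusted p under 0.05, against 4.46% and 3.13% of all genes. *Kcnd2* fell by 0.96 (SE 0.243, adjusted p 0.0141). That value was -0.47 without the mixed young adult array (adjusted p 0.149) and -0.85 without the mixed old adult array (adjusted p 0.0619). *Kcnh2* was 0.49 below young adult (adjusted p 0.0717), and 0.65 below without the old female array (adjusted p 0.0253) or 0.77 without the young male array (adjusted p 0.00404). *Kcne1* (-0.70, adjusted p 0.268), *Kcnip2* (-0.23, adjusted p 0.431), *Kcnq1* (-0.24, adjusted p 0.446) and *Kcna4* (-0.02, adjusted p 0.96) did not pass the test, which does not show that they were equal. The hybridization control level was between 12.03 and 12.43 in young and between 11.16 and 11.56 in old adults, and with it as a covariate *Kcna5* was 1.55 and *Kcne1* 1.62 lower in old adults (adjusted p 0.00517 and 0.00166). These ranges did not overlap, so that fit cannot separate the control level from age.

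**Figure D4:**
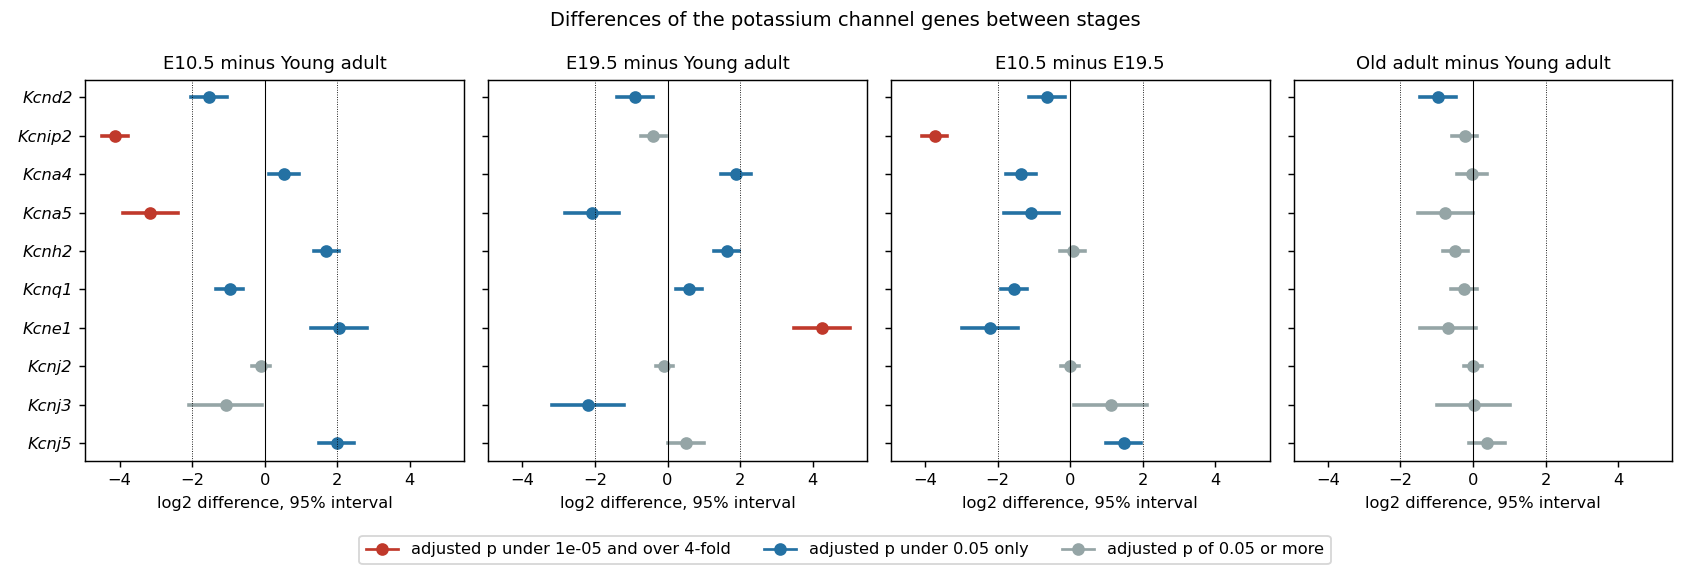
Log2 differences of the 10 genes in the 4 main comparisons, with 95% intervals from limma; the first-named stage minus the second, dotted lines at a 4-fold change, colours for the 2 limits (all red genes also have a stage mean above 5). *Kcnip2* is far to the left at E10.5, at -4.12 against young adult and -3.74 against E19.5, and *Kcne1* to the right at E19.5, at 4.25.

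Sex was examined in 9 pairs of a male and a female array, 1 for each stage from E13.5 on, with the stage as a block. None of the 10 genes had an adjusted p under 0.05 in limma, against 0.0435% of all genes, and 1 had an unadjusted p under 0.05. This was *Kcnj5*, lower on the male array in 9 of 9 pairs by 0.34 on average (SE 0.108, adjusted p 0.526). Its old adult pair was at -1.19 and its young adult pair at -0.42, while its embryonic pairs ranged from -0.62 to -0.01. *Kcnj3* was lower on the male array in 7 of 9 pairs by 0.50 (SE 0.259, adjusted p 0.658), with the old adult pair alone at -3.32. The E12.5 pair, which the study's sex comparison leaves out, went the other way for both, with *Kcnj5* at 4.98 on the female and 5.62 on the male array and *Kcnj3* at 3.64 and 4.59. With that pair included, 0 of the 10 genes had an adjusted p under 0.05 in limma. A difference of the sex effect between the 2 adult and the 7 embryonic pairs also had an adjusted p under 0.05 in none of the 10 genes (0.613% of all genes), and 3 had an unadjusted p under 0.05, *Kcnh2*, *Kcnj3* and *Kcnj5*. *Kcnh2* was 0.91 lower on the male than on the female array of young adults and 0.32 lower in old adults, while the embryonic pairs ranged from -0.13 to 0.24 (adjusted p of the difference 0.132).

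Beside the 10 genes, 79 further potassium channel genes of a list of channel families were on the array, of which 24 had a stage mean above 5. Against young adult, 2 of the 79 were called higher at E10.5 and 3 lower, where 7.78% of all genes were called in either direction. With an adjusted p under 0.05, 7 were higher and 46 lower (28.5% and 38.6% of all genes), with a median difference of -0.50 against -0.21 over all genes. The E19.5 counts were 7 higher and 13 lower (17.0% and 14.7% of all genes), with a median of -0.11. After centring they were 4 and 23 (12.0% and 23.3% of all genes). The same centring gave 4 higher and 68 lower at E10.5, while the share of all genes went to 18.0% higher and 63.6% lower. Quantile normalization of the deposited values gave 7 and 35 at E10.5 (23.0% and 31.5% of all genes).

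Among the voltage-gated pores, *Kcnq5*, a relative of *Kcnq1* best known from neurons, was 2.52 higher at E10.5 than in young adults (adjusted p 4.8e-09). A secondary probe set of *Kcnh3*, a relative of *Kcnh2*, was 2.04 lower at E10.5 than in young adults (adjusted p 1.2e-06).

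*Kcnj8*, the pore of the ATP-sensitive channel of vascular muscle, was 2.16 lower at E10.5 than in young adults (adjusted p 4.5e-11), at 3.62 ± 0.17 against 5.78 ± 0.26. Of the channels opened by calcium or sodium, *Kcnn2* was 2.22 higher at E10.5 (adjusted p 3.0e-10), at 5.42 ± 0.14 against 3.20 ± 0.23. *Kcnt2*, a sodium-activated channel, was 2.92 lower at E10.5 (adjusted p 2.4e-09) and 2.28 lower at E19.5 (adjusted p 9.3e-07) than in young adults. No gene of the 12 two-pore-domain channels or the 12 other auxiliary subunits was called in any of the 4 comparisons. By the brightest probe set, only 2 of the former and 3 of the latter had a stage mean above 5, which a call requires. With an adjusted p under 0.05, 1 of the former was higher and 8 lower at E10.5 than in young adults. Of the latter, 1 was higher and 6 lower (28.5% and 38.6% of all genes).

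Of 16 receptors, G-protein regulators and scaffolds that act on these channels, 1 was called higher and 1 lower at E10.5 than in young adults by its brightest probe set (7.78% of all genes in either direction). *Nedd4l*, a ubiquitin ligase that removes channels from the membrane, was 2.14 higher (SE 0.206, adjusted p 2.5e-10), at 7.20 ± 0.15 against 5.06 ± 0.24. *Rgs4*, which ends G-protein signals to GIRK channels, was 2.31 lower (adjusted p 1.2e-10), at 3.84 ± 0.20 against 6.15 ± 0.17, and its second probe set gave -2.99 at E10.5 and -2.06 at E19.5. A secondary probe set of *Ank2*, the ankyrin that anchors channels and exchangers, was 2.36 higher at E10.5 (adjusted p 7.9e-06), while its brightest gave 0.47 (adjusted p 0.102). With an adjusted p under 0.05, 6 of the 16 were higher and 3 lower (28.5% and 38.6% of all genes), with a median of 0.35 against -0.21 over all genes.

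For the 3 genes called in the main comparisons, the 2 genes with the most similar course over the 12 stage means were sought among 11316 expressed genes. *Kcnip2* was most like *Dhrs7c* (Pearson's r = 0.992) and *Hhatl* (0.986), *Kcna5* most like *Fgf1* (0.984) and *Mfsd11* (0.982), and *Kcne1* most like *Nudt16l1* (0.975) and *Eif4ebp1* (0.970). *Dhrs7c* had a mean of 2.82 on the first embryonic day, 6.92 on the last and 7.36 in young adults, close in shape to *Kcnip2*. *Nudt16l1* moved over a far smaller range than *Kcne1*, with 8.90, 9.33 and 8.45 at the same stages. The 12 means share their arrays and the course of development, so these values describe likeness only.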

How the data were processed

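RNA of OF1 mouse hearts was amplified from its 3′ end, labelled with biotin and hybridized to whole-genome mouse arrays of Affymetrix. The authors made the deposited log2 values by robust multi-array average, and the submitters' processing notes name Affymetrix Expression Console, Partek 6.6 and RMA. Array medians lay between 4.002 and 4.196. Values were used as deposited, and 0 columns of values were left unused. The deposited symbols write "na" as "-", and 523 were restored through gene IDs.

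Stage means were compared in R 4.3.3 with limma 3.58.1, in 1 model of 12 stages on 36 arrays (prior degrees of freedom 6.96), with Benjamini-Hochberg adjustment over all probe sets of the array. Groups come from the labels. Each gene is read from its probe set with the highest mean. Fits were tested on simulated data. The 10 genes and all lists were chosen with earlier results of these data known. Named are the 10 genes, listed channel genes and partners with a called probe set (1 of which is not reported here), the 2 genes most like each called gene, and markers. Alternatives concerned normalization, filter, moderation, probe set choice, call limit, covariates, block and left-out arrays. The labels' extraction protocol names liver and another kit than the methods. The sample titles gain a prefix at the female E16.5 array and keep it, which is not stated to be a batch. Upstream sequence and positions come from RefSeq, GRCm38.p6.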

Additional observations from a re-analysis of the deposited data

How the results depend on the processing

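Differences of single genes were recomputed under 26 other settings, which gave 640 values. Of these, 588 stayed on their side of an adjusted p of 0.05, 31 lost it, 19 gained it and 2 turned their direction. Neither of those 2 was past 0.05 both before and after the turn. *Kcne1* between E10.5 and young adult was past it as first fitted (2.05), but not with the hybridization control level as a covariate (-0.57). *Kcnj3* between old and young adult was 0.02 with all arrays. It was past 0.05 without old adult array 3, the female one (-1.19, with -1.19 to 0.77 over the arrays left out). For E10.5 against young adult, where 2 genes were called, the mean of all probe sets gave 1 and a limit of 1 on the log2 scale 5. The title prefix as a block, which rests on the E16.5 arrays alone, gave 1 (*Kcna5* then had an adjusted p of 1.1e-04). For E19.5 against young adult, with 1 called, quantile normalization and centring each gave 2, the lower limit 3, the covariate 3, and leaving out arrays 1 to 2. For E10.5 against E19.5, with 1 called, quantile normalization, centring and the covariate gave 2, the mean of probe sets 0 and the lower limit 3. For old against young adult, the genes with an adjusted p under 0.05 were 2 with quantile normalization, 2 with centring, 0 in a fit of the 6 arrays alone, 3 with the covariate and 0 to 3 over the arrays left out. Centring moved the median over all genes by -0.53 for E10.5, -0.18 for E19.5 and -0.14 for old adult against young adult, and the share of higher among called genes from 42.4% to 22.1%, 53.6% to 34.1% and 58.8% to 34.2%, and for E10.5 against E19.5 from 47.5% to 22.5%. Quantile normalization moved the share for old against young adult to 47.8%. In a fit with sex label as a replicate block over the 30 arrays from E12.5 on, 1 gene was called and 7 had an adjusted p under 0.05 for E19.5 against young adult, and 0 and 1 for old against young adult, the same counts as without a block on these arrays, a comparison chosen after seeing the data. Arrays of 1 label share only that label: 23 of 30 correlated best with an array of their own label, and median correlations between stages were 0.12, 0.05 and 0.02 for female, male and mixed. E10.5 and E11.5 have no such labels, so no block could be fitted for E10.5. The fits without the mixed arrays of E13.5, E17.5 and E18.5 were also chosen after seeing the data. Levels below 5 lie near the background of the arrays, where changes are compressed. This limits *Kcnj2*, *Kcnj3*, *Kcnd2* and the dim probe sets at nearly all stages, *Kcnip2* up to E14.5 and *Kcna5* up to E16.5. It also limits *Kcne1*, *Kcna4* and *Kcnj5* in adults, *Kcna4* at E10.5, and *Kcnq1* at E10.5 and E11.5. The causes of these changes were not tested.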
